A study of Mus musculus with 6 samples.

Results

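The genes described here are the nucleolar and ribosome biogenesis factors of the mouse kidney, taken as the 52 gene symbols of 17680 in the deposited tables that begin with Nop, Nol, Utp or Rrp and a number, or that name the RNA polymerase I subunits Polr1a to Polr1e or one of Fbl, Ncl, Npm1, Dkc1, Gar1, Nhp2, Bop1, Pes1, Wdr12 and Nolc1. RNA was sequenced from kidneys of wild-type C57BL/6 mice aged 6 to 8 weeks. In the LPS group, 3 mice had received bacterial lipopolysaccharide into the peritoneum as a model of septic kidney injury, and in the Control group 3 mice had received phosphate-buffered saline by the same route. Tissue was taken 24 h after the injection. The labels state neither the LPS dose nor the sex of the mice nor a batch. The comparison addresses how kidney RNA levels after LPS differ from those after saline.

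Ribosomes are built in the nucleolus, where RNA polymerase I copies the ribosomal DNA into a long precursor RNA. Small nucleolar ribonucleoproteins (snoRNPs) modify that precursor, box C/D particles by methylating ribose and box H/ACA particles by converting uridine to pseudouridine. Large assemblies of processing factors then cut and fold it into the small and large ribosomal subunits. Production of these factors is known to follow the growth and protein synthesis of a cell, and the transcription factor Myc is a known activator of many of their genes.

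Most of these genes were moderately higher in LPS kidneys. The edgeR quasi-likelihood test was fitted on all 14219 genes with enough counts and adjusted over them by the Benjamini-Hochberg method, with an adjusted p below 0.05 as the threshold. Of the 52 symbols 51 were tested, and 34 of them rose (66.7%), against 25.7% of all tested genes. Another 3 fell (5.88%), against 24.8% of all tested genes, and 14 did not pass. The median log2 fold change of LPS over Control was 0.45 over the 51 genes, which is 1.37-fold, and 0.01 over all tested genes. Sizes were small: 1 gene, Rrp12, rose at least 2-fold, where 8.24% of all tested genes did, and 1 gene, Utp14b, fell at least 2-fold, where 9.62% of all tested genes did. In 37 of the 51 genes every LPS library lay above every Control library in CPM, the counts scaled to a common library size, as in 30.5% of all tested genes, and in 4 every LPS library lay below, as in 29.8% of all tested genes.

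**Figure D1:**
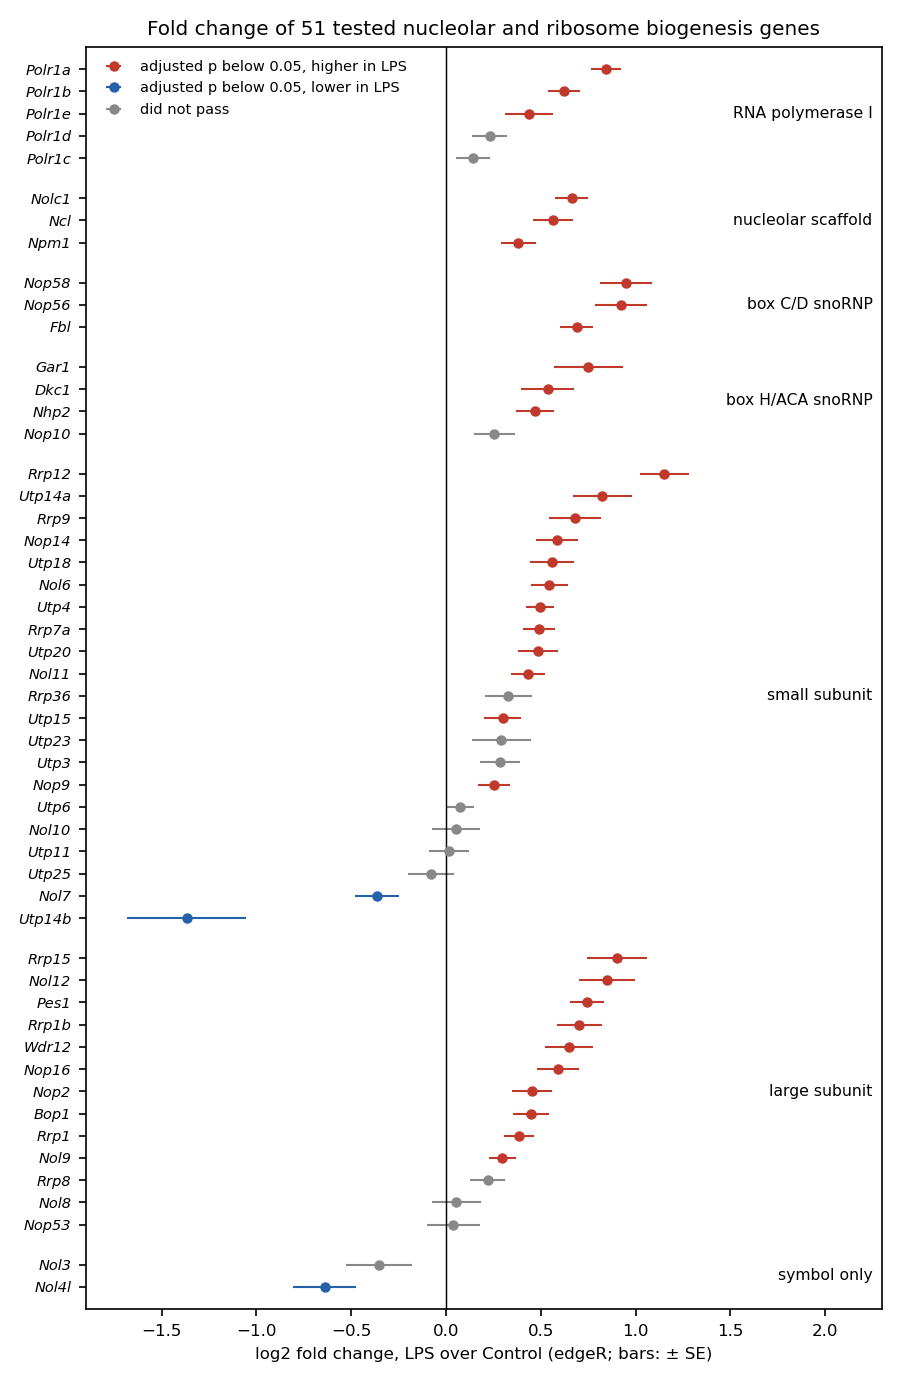
Log2 fold change of LPS over Control (x axis; bars are ± SE of the edgeR fit, 3 libraries per group) for the 51 tested genes, ordered within role groups. Red points are the 34 genes that rose, blue points the 3 that fell and grey points the 14 that did not pass; most points lie between 0 and 1, and Utp14b lies apart at -1.37.

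The libraries held between 29097558 and 33454344 counts. LPS replicate 2 stood apart from the others, with seminal vesicle transcripts at 3.66% of its counts against at most 0.00457% in the other libraries. Without it 33 of the 51 genes rose (64.7%), against 22% of the 14413 genes then tested. Another 2 of the 51 fell, as did 3031 of those 14413. All 11 markers of tubule segments and glomerulus that were looked up were present, as the kidney label requires, and 9 of them fell. Of 11 neutrophil markers 7 were tested and all 7 rose; their summed level was 71.0 to 105 CPM in LPS and 3.12 to 3.98 CPM in Control libraries, with Elane and Mpo at 0 in Control. Of 11 monocyte and macrophage markers 4 rose and 4 fell, with sums of 208 to 234 CPM in LPS and 150 to 240 CPM in Control. Of 8 T and B cell markers 4 were tested and all 4 fell, with sums of 1.90 to 3.29 CPM in LPS and 5.72 to 18.6 CPM in Control. The 5 tested red cell markers all fell, from sums of 246 to 320 CPM in Control to 53.3 to 125 CPM in LPS. The part of these cell types in the changes below was not tested. In whole tissue, more cells of a type and more RNA per cell cannot be told apart. Of 12 markers of cycling cells, 0 passed the test in either direction (edgeR, smallest unadjusted p = 0.0768, for Ccna2). Their sums were 13.1 to 16.4 CPM in LPS and 14.4 to 22.7 CPM in Control libraries. The Control sum was highest in replicate 1, at 22.7 CPM against 14.7 and 14.4 CPM in replicates 2 and 3. With SEs of 0.26 to 0.59, a log2 fold change of 0.45, the median of the 51 genes, could have been missed in these markers.

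To show the regulatory DNA next to the values, the stretch of 250 bases before the transcription start was taken from RefSeq (assembly GRCm38.p6), which held an entry for 41 of the 52 symbols. These 41 symbols had 50 entries, and a gene was counted as a match if any of its entries matched. Each stretch was searched on both strands for the E-box CACGTG, the preferred site of Myc and related factors, and for CCGGAAG, a common form of the ETS family site. The E-box letters occurred before 6 of the 41 genes (14.6%) and before 9.54% of the 11291 tested genes with an entry. The ETS letters occurred before 11 of the 41 (26.8%) and before 14.3% of those tested genes. Among the genes that rose, 4 of 29 held the E-box and 6 of 29 the ETS letters, and among the other genes with an entry 2 of 12 and 5 of 12. A match is a description of these letters and not a measured binding site. The 4 stretches below, 5′ to 3′ on the strand of the gene with matches in capitals, are from Nop2 (chr6:125131633-125131882, plus strand; both motifs, rose), Nol11 (chr11:107189382-107189631, minus strand; E-box, rose), Nop56 (chr2:130274162-130274411, plus strand; neither, rose) and Utp14b (chr1:78658190-78658439, plus strand; E-box, fell), chosen to show windows with and without matches.
Nop2: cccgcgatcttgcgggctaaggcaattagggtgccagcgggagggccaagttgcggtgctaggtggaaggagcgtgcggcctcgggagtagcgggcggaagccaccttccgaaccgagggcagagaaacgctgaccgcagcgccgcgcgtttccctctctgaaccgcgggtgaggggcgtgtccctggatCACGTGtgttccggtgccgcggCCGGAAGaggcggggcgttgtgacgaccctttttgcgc
Nol11: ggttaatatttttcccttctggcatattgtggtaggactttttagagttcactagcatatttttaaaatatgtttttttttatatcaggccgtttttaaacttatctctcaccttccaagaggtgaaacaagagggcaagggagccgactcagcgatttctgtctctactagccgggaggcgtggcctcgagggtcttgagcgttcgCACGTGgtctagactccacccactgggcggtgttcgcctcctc
Nop56: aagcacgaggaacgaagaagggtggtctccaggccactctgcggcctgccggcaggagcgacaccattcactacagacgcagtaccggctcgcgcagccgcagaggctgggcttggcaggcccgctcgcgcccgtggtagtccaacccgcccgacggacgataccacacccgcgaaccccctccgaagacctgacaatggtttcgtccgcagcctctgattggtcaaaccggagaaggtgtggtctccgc
Utp14b: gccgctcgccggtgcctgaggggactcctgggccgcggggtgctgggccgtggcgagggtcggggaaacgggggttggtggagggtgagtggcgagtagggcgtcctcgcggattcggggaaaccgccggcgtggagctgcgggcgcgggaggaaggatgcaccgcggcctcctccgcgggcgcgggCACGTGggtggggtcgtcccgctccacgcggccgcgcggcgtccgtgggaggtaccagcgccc
In Nop2 the E-box begins 60 bases and the ETS letters 38 bases before the start, and in Nol11 the E-box begins 43 bases before it. The E-box of Utp14b begins 63 bases before the start. Utp14b lies within the gene Acsl3 on the same strand, so its window cannot be assigned to Utp14b alone. Of the 6 genes with the E-box letters 4 rose, Utp14b fell and Utp25 did not pass. No binding was measured, and a part of Myc in these values was not tested. Myc itself rose, from 6.52, 5.83 and 7.005 CPM in the Control libraries to 41.3, 38.1 and 37.6 CPM in the LPS libraries.

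Of the 5 RNA polymerase I subunits Polr1a to Polr1e, Polr1a, Polr1b and Polr1e rose (60%) and 0 fell, against 25.7% and 24.8% of all tested genes. Polr1c and Polr1d, which RNA polymerase III shares, did not pass the test. The subunit genes Twistnb, Cd3eap and Znrd1, which are outside the naming rule and not shared with RNA polymerase III, did not pass either, with log2 fold changes of 0.07, 0.34 and -0.04 (edgeR adjusted p = 0.712, 0.125 and 0.786). Polr1a, the largest subunit and part of the catalytic centre, stood at 52.0, 51.9 and 46.9 CPM in LPS replicates 1, 2 and 3 and at 29.1, 26.3 and 28.5 CPM in Control replicates 1, 2 and 3. Every LPS library lay above every Control library, and the log2 fold change was 0.85 ± 0.08 (SE; edgeR, Benjamini-Hochberg adjusted p = 3.12e-05). Polr1b, the other subunit of the catalytic centre, rose by 0.62 ± 0.08, and Polr1e by 0.44 ± 0.13. The call for Polr1e was lost without LPS replicate 2, LPS replicate 3 or Control replicate 3 (edgeR adjusted p = 0.0539, 0.0549 and 0.0556). Polr1c, a shared subunit, stood at 47.7, 41.0 and 46.1 CPM in LPS and at 36.8, 41.7 and 43.6 CPM in Control libraries. These ranges overlapped, and its log2 fold change of 0.14 ± 0.09 did not pass (edgeR adjusted p = 0.221). Its shared partner Polr1d had a log2 fold change of 0.23 ± 0.09 and did not pass (edgeR adjusted p = 0.0665), except without LPS replicate 1, where it was 0.30 (adjusted p = 0.0197).

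Nucleolin, nucleophosmin and Nolc1, abundant proteins that organise the nucleolus, all rose, where 25.7% of all tested genes did. Ncl, which encodes nucleolin, stood at 268, 300.5 and 327 CPM in LPS and at 177, 210.2 and 218 CPM in Control libraries. No LPS library overlapped a Control library, although both groups spread widely, with means of 299 ± 29.7 and 202 ± 21.6 CPM (SD, n = 3 per group). The log2 fold change of Ncl was 0.57 ± 0.11 (edgeR adjusted p = 0.00209). Npm1, which encodes nucleophosmin, stood at 173, 191 and 201 CPM in LPS and at 134, 144 and 156 CPM in Control libraries. The groups did not overlap, and the log2 fold change was 0.38 ± 0.09 (edgeR adjusted p = 0.00775), the smallest of these 3 genes. Npm1 is known to have many near-identical pseudogene copies, and its count, like that of Nop10, may depend on how shared reads were assigned. That dependence was not tested. Nolc1, a chaperone of snoRNPs, stood at 46.1, 56.0 and 54.4 CPM in LPS and at 33.6, 33.2 and 32.1 CPM in Control libraries. Its groups were clearly apart, with a log2 fold change of 0.66 ± 0.09 (edgeR adjusted p = 0.000269).

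All 3 core proteins of box C/D snoRNPs rose, where 25.7% of all tested genes did. Their median log2 fold change of 0.92 was the highest of the role groups. Nop58 stood at 30.4, 37.5 and 44.4 CPM in LPS and at 20.8, 19.2 and 18.1 CPM in Control libraries. Nop56, its paired partner in the particle, stood at 26.2, 33.3 and 39.1 CPM in LPS and at 17.3, 16.8 and 17.8 CPM in Control libraries. In both genes LPS replicate 1 was the lowest and LPS replicate 3 the highest of the LPS libraries, and no library overlapped the other group. Their log2 fold changes were 0.95 ± 0.14 for Nop58 and 0.92 ± 0.14 for Nop56 (edgeR adjusted p = 0.000421 and 0.000537). Fbl, which encodes fibrillarin, the methyltransferase of these particles, stood at 47.9, 49.1 and 56.4 CPM in LPS and at 32.3, 33.1 and 29.7 CPM in Control libraries. It too was higher in every LPS library, by 0.69 ± 0.09 (edgeR adjusted p = 0.000201).

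Of the 4 box H/ACA proteins 3 rose, where 25.7% of all tested genes did. Dkc1, the pseudouridine synthase dyskerin, stood at 17.3, 21.5 and 24.4 CPM in LPS and at 13.1, 15.2 and 15.2 CPM in Control libraries. Its LPS libraries were all higher but differed among themselves, and the log2 fold change was 0.54 ± 0.14 (edgeR adjusted p = 0.0107). Gar1 stood at 11.2, 14.02 and 17.0 CPM in LPS and at 7.66, 9.90 and 7.53 CPM in Control libraries. With the groups apart, Gar1 rose by 0.75 ± 0.18, and Nhp2, which contacts the guide RNA, by 0.47 ± 0.10 (edgeR adjusted p = 0.00764 and 0.00387). Nop10, a very small protein that joins dyskerin to Nhp2, stood at 106, 87.8 and 110.4 CPM in LPS and at 93.6, 81.9 and 79.6 CPM in Control libraries. LPS replicate 2 fell within the Control range, and the log2 fold change of 0.25 ± 0.11 did not pass (edgeR adjusted p = 0.0745). Nop10 passed without LPS replicate 2 (0.35, adjusted p = 0.0197) or Control replicate 1 (0.33, adjusted p = 0.0455).

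**Figure D2:**
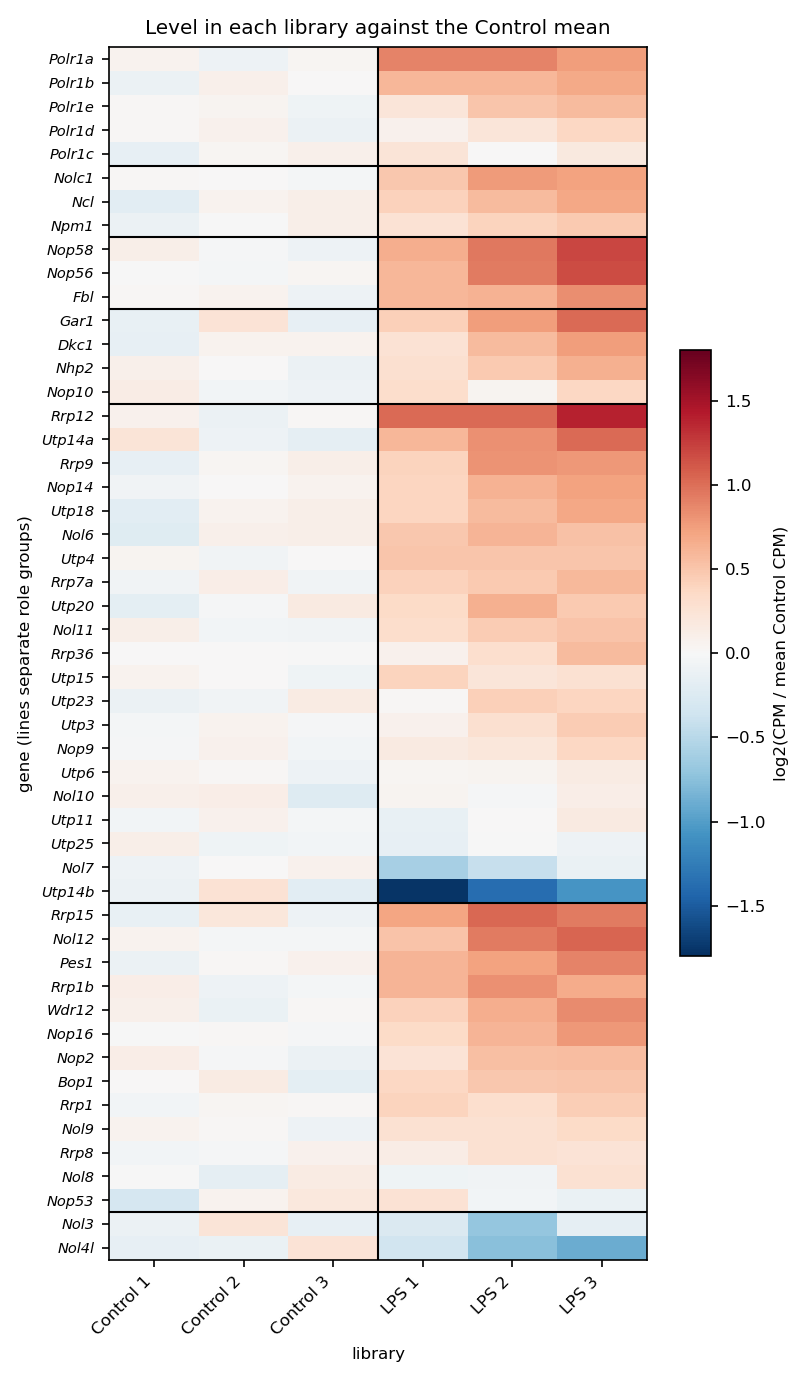
Level of each of the 51 tested genes (rows, grouped by role in the order of the fold change plot) in each library (columns), as log2 of its CPM over the mean Control CPM. Red is higher and blue lower than the Control mean; the LPS columns are red for most rows, palest in LPS 1, and most clearly blue for Utp14b, Nol7, Nol3 and Nol4l.

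The factors of small subunit assembly were the most varied group, with a median log2 fold change of 0.33. Of these 21 genes 12 were higher (57.1%) and 2 lower (9.52%), against 25.7% and 24.8% of all tested genes. Rrp12, which helps export small subunit precursors from the nucleus, had the largest log2 fold change of the 51 genes. It stood at 23.5, 23.6 and 30.2 CPM in LPS and at 12.3, 10.7 and 11.7 CPM in Control libraries. All LPS libraries were well above the Control range, and the log2 fold change was 1.15 ± 0.13, or 2.22-fold (edgeR adjusted p = 9.16e-05). Utp14a, a partner of the helicase Dhx37, rose by 0.83 ± 0.15, and Rrp9, which binds the U3 snoRNA, by 0.68 ± 0.14. Nop14 rose by 0.59, Utp18 by 0.56, Nol6 by 0.55, Rrp7a by 0.49 and the scaffold protein Utp20 by 0.49. Of the subcomplex that binds the nascent precursor earliest, Utp4 rose by 0.50 ± 0.07, Nol11 by 0.43 ± 0.09 and Utp15 by 0.30 ± 0.10.

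Calls near the threshold in the small subunit group turned on single libraries. Nop9 rose by 0.25 ± 0.08 (edgeR adjusted p = 0.0308), a call lost with DESeq2 (adjusted p = 0.0514) and without LPS replicate 2, LPS replicate 3, Control replicate 1 or Control replicate 3 (edgeR adjusted p = 0.0585, 0.0990, 0.0836 and 0.0941). Utp15 lost its call without LPS replicate 1, Control replicate 2 or Control replicate 3 (edgeR adjusted p = 0.0748, 0.0758 and 0.0916) and with limma on log2(FPKM + 1) or log2(FPKM + 0.1) (adjusted p = 0.0539 and 0.0529). Rrp36, Utp3 and Utp23 did not pass, at log2 fold changes of 0.33, 0.28 and 0.29 (edgeR adjusted p = 0.0520, 0.0514 and 0.149), but did so without LPS replicate 1, at 0.44, 0.38 and 0.41 (edgeR adjusted p = 0.00932, 0.0107 and 0.0439). Utp3 also passed with limma on log2(FPKM + 1) or log2(FPKM + 0.1) (adjusted p = 0.0499 and 0.0465). Utp6, Nol10, Utp11 and Utp25 did not pass either, with log2 fold changes of 0.08, 0.05, 0.02 and -0.08, each with an SE of 0.07 to 0.13. The SE of these 4 genes is of the same size as in the genes that rose.

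The 2 small subunit genes that fell were Utp14b and Nol7. Utp14b, a retrocopy of Utp14a known for its need in sperm development, stood at 0.615, 0.812 and 1.00 CPM in LPS and at 1.94, 2.51 and 1.84 CPM in Control libraries, from 78 counts in LPS and 191 in Control. All LPS libraries were below all Control libraries, and its log2 fold change was -1.37 ± 0.31 (edgeR adjusted p = 0.00571), opposite in sign to that of Utp14a. Tested by limma as log2(FPKM + 1), where the added 1 exceeds its own level, Utp14b came to -0.34 and so less than 2-fold (adjusted p = 0.00300), and in the other alternatives it was -1.06 to -1.55. Utp14b lies within the gene Acsl3 on the same strand and shares exon sequence with it in the GENCODE M21 annotation (3.18% of the Utp14b exon length), and Acsl3 also fell, by -0.91 ± 0.09 from 32.2 to 17.2 CPM. How reads of the shared sequence, or of the similar Utp14a, were assigned is stated by no source used here, so the value for Utp14b is uncertain. Nol7, a member of the early small subunit precursor, had a log2 fold change of -0.36 ± 0.12 (edgeR adjusted p = 0.0267). It stood at 35.1, 39.7 and 48.6 CPM in LPS and at 49.8, 53.2 and 55.6 CPM in Control libraries, so LPS replicate 3 came close to the lowest Control library. The call for Nol7 was lost without LPS replicate 1, LPS replicate 2, Control replicate 2 or Control replicate 3 (edgeR adjusted p = 0.0679, 0.0797, 0.0718 and 0.0850), with log2 fold changes of -0.26 to -0.36.

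Large subunit factors rose in 10 of 13 cases (76.9%) and fell in 0, against 25.7% and 24.8% of all tested genes. Their median log2 fold change was 0.45. All 13 log2 fold changes were above 0, so in this edgeR fit a looser threshold could not have given a lower gene. With DESeq2 and limma the count of lower genes in this group was also 0. The PeBoW complex, which is needed for maturation of the large subunit RNA, rose as a whole, Pes1 by 0.75 ± 0.09, Wdr12 by 0.65 ± 0.13 and Bop1 by 0.45 ± 0.09. Rrp15 stood at 9.19, 11.6 and 10.8 CPM in LPS and at 5.12, 6.45 and 5.29 CPM in Control libraries. It had the largest log2 fold change of the group, 0.90 ± 0.16 (edgeR adjusted p = 0.00145), with no overlap between the groups. Nol12 rose by 0.85 ± 0.15, Rrp1b by 0.70 ± 0.12, Nop16 by 0.59 ± 0.11 and Rrp1 by 0.39 ± 0.08. Nop2, a cytosine methyltransferase of the large subunit RNA, rose by 0.45 ± 0.11, and Nol9, a polynucleotide kinase that acts on the spacer between the large subunit RNAs, by 0.30 ± 0.07. Nop53, which brings the RNA exosome to the large subunit precursor, stood at 88.6, 71.7 and 68.0 CPM in LPS and at 60.0, 77.7 and 84.6 CPM in Control libraries. The libraries of both groups were interleaved, and its log2 fold change of 0.04 ± 0.14 did not pass. Nol8 at 0.06 ± 0.13 and the methyltransferase Rrp8 at 0.22 ± 0.09 did not pass either (edgeR adjusted p = 0.751 and 0.0757), although every LPS library lay above every Control library for Rrp8.

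Of the 3 symbols that match the naming pattern without an established role in ribosome synthesis, Nol4l fell, Nol3 did not pass and Nol4 was not tested. Nol3, which encodes a repressor of apoptosis known as ARC, stood at 9.71, 7.19 and 10.4 CPM in LPS and at 10.8, 13.6 and 10.5 CPM in Control libraries. Its groups touched without overlapping, and the log2 fold change of -0.35 ± 0.17 did not pass (edgeR adjusted p = 0.123). Nol4l stood at 17.5, 13.1 and 12.0 CPM in LPS and at 19.99, 20.3 and 26.2 CPM in Control libraries. It was lower in every LPS library and fell by -0.64 ± 0.17 (edgeR adjusted p = 0.0108). Nol4 had too few reads, with 0 counts in LPS libraries, which allows up to 3 counts over the group, and 1 count in Control libraries. Without these symbols 34 of 49 genes rose (69.4%) and 2 fell (4.08%), against 25.7% and 24.8% of all tested genes.

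**Figure D3:**
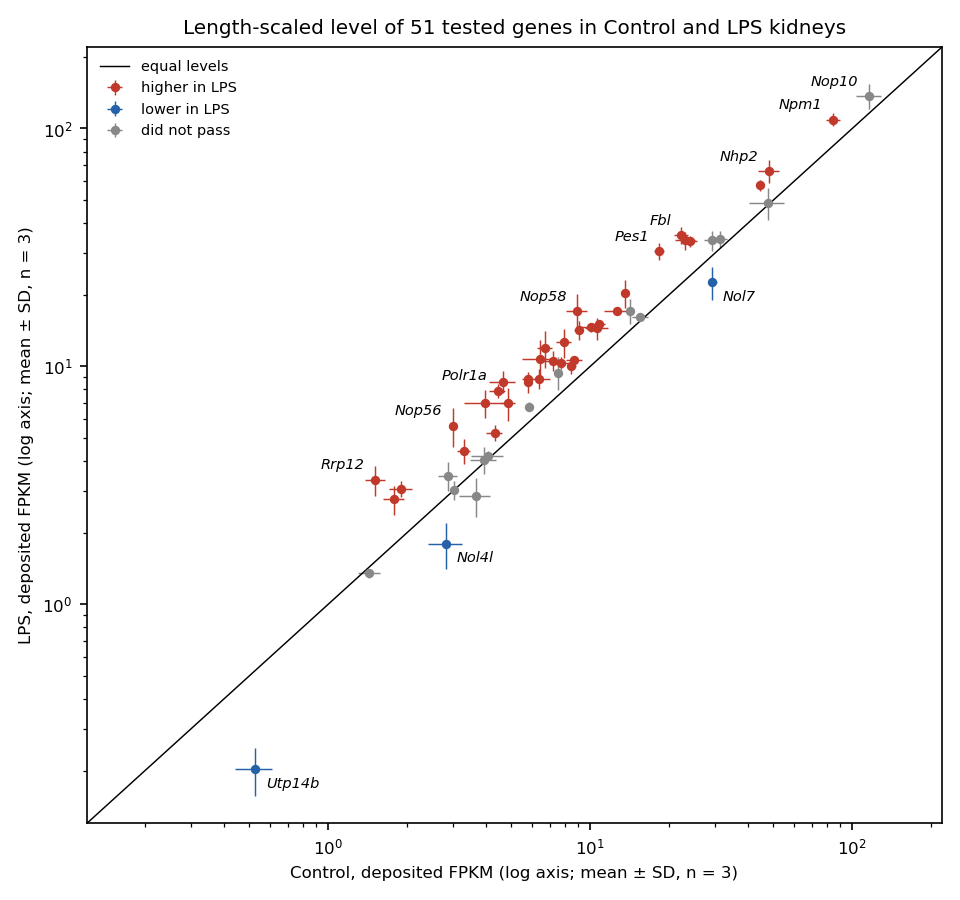
Deposited FPKM of the 51 tested genes, Control on the x axis and LPS on the y axis, both log axes; points are means and bars ± SD over 3 libraries, and the line marks equal levels. Most genes lie a short way above the line across the whole range of levels, and 5 genes lie below it: Utp14b, Nol7 and Nol4l, which fell, and Nol3 and Utp25, which did not pass.

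Levels between genes were compared on the deposited FPKM scale, which divides by gene length. Nop10 had the highest level in Control kidneys, 116 ± 12.7 FPKM (SD, n = 3), then Npm1 with 84.3 ± 5.13 FPKM. Nhp2, Nop53 and Rrp1 followed at 48.1 ± 4.28, 47.6 ± 7.32 and 44.5 ± 0.497 FPKM, and these 3 do not differ beyond their spread. At the low end stood Utp14b with 0.528 ± 0.0847 FPKM, Utp25 with 1.44 ± 0.133 FPKM and Rrp12 with 1.51 ± 0.130 FPKM, the last 2 again within their spread. In LPS kidneys Nop10 and Npm1 remained the highest, at 137 ± 16.3 and 109 ± 6.91 FPKM. The largest fold changes were thus found among genes of low or middle level, such as Rrp12, Nop58 (8.91 ± 0.805 FPKM in Control) and Nop56 (2.99 ± 0.111 FPKM). The order depends on the gene lengths behind the FPKM values: for Nop56 that length is 5807 bases, 3.09 times the main GENCODE M21 transcript, and for Rrp12 it is 7688 bases, 1.77 times, while for Nop10 it is 738 bases, 0.665 times. With FPKM rescaled to the length of the main GENCODE M21 transcript the order in Control turned, with Npm1 highest at 88.7 FPKM, then Nop10 at 77.0 and Polr1d at 54.6 FPKM, and with Nop53 at 23.4 FPKM. The edgeR fold changes do not use these lengths.

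Reads from overlapping genes bear on some values, since no source used here states the strand setting of the counting. In GENCODE M21, exons of 13 of the 51 symbols found there overlap a protein-coding gene on the opposite strand. For Nop9 the overlap with Cideb covers 29.9% of its exon length, and Cideb fell by -1.42 while Nop9 rose. For Rrp7a the overlap with Serhl covers 12.5%, and Serhl fell by -0.43 while Rrp7a rose by 0.49. For Nol7 the overlap with Ranbp9 covers 16.5%, and Ranbp9 had a log2 fold change of 0.00 and did not pass. The largest overlap was that of Nol3 with 4931428F04Rik, at 48.2% of its exon length, and 4931428F04Rik had a log2 fold change of 0.09 and did not pass. For Rrp8 the overlap with Ilk covers 9.98%, and neither Ilk at 0.18 nor Rrp8 at 0.22 passed. The other 8 antisense overlaps cover 0.122% to 4.56%. The part of such reads in the values was not tested.

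The LPS kidneys differed among themselves in these genes. LPS replicate 3 was the highest LPS library for 25 of the 34 genes that rose (73.5%), and LPS replicate 1 the lowest for 28 (82.4%). Over all 3658 genes that rose, LPS replicate 3 was the highest for 45.4% and LPS replicate 1 the lowest for 46.6%. The summed level of the 52 symbols was 1.25, 1.33 and 1.43 times the Control mean in LPS replicates 1, 2 and 3, and 0.966, 1.02 and 1.02 times in Control replicates 1, 2 and 3. The box C/D proteins spread most, at 1.53, 1.75 and 2.05 times the Control mean, and the small subunit factors lay at 1.17, 1.28 and 1.35 times. Polr1a was an exception, with its lowest LPS value in LPS replicate 3. With 3 mice per group the spread between LPS kidneys cannot be tied to any other property of the animals.

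**Figure D4:**
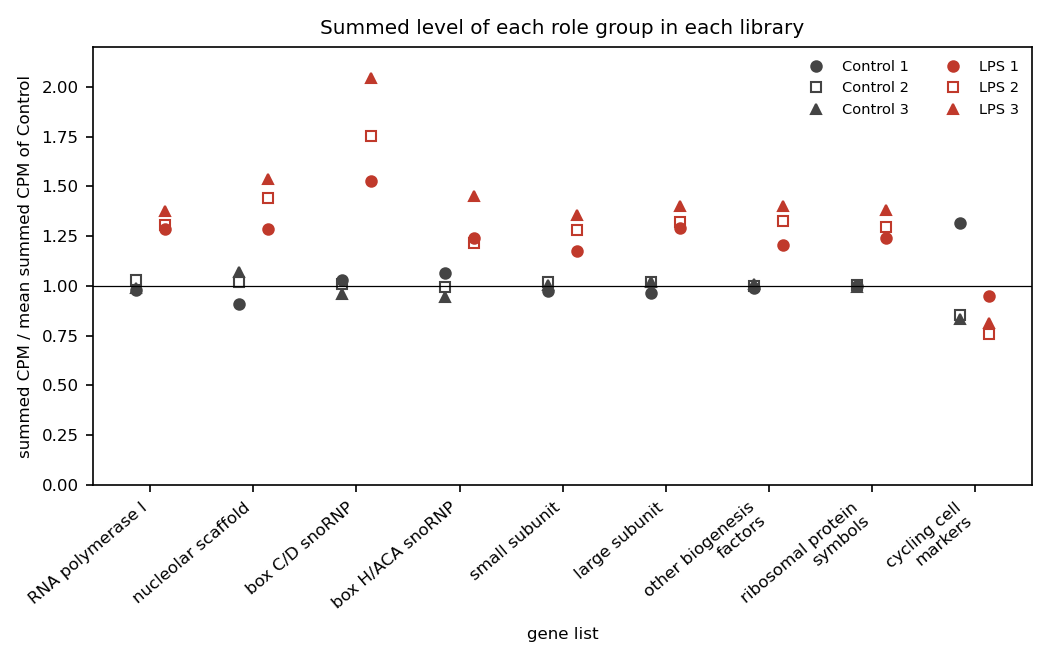
Summed CPM of each role group and of 3 comparison lists (x axis) in each library, divided by the mean Control sum (y axis); grey symbols are Control and red symbols LPS libraries, with 1 symbol shape per replicate. In every role group shown all LPS libraries lie above all Control libraries, most in the box C/D proteins. The symbols without an established role in ribosome synthesis are not shown. Their sums were lower in LPS, at 20.3 to 27.3 CPM against 30.8 to 36.7 CPM in Control libraries. For the cycling cell markers, which have low counts, the LPS and Control sums overlap.

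Other factors of the same pathway, listed by role, were likewise mostly higher. Of 122 such genes, all tested, 71 rose (58.2%), 4 fell (3.28%) and 47 did not pass, against 25.7% higher and 24.8% lower of all tested genes, with a median log2 fold change of 0.38. Eif6, which keeps the large subunit from joining the small one too early, stood at 192, 227 and 294 CPM in LPS and at 49.4, 61.0 and 54.0 CPM in Control libraries. Its log2 fold change of 2.12 ± 0.16 was the largest of the 122, followed by Gnl3, which encodes the nucleolar GTPase nucleostemin, at 1.28 ± 0.10 and Tma16 at 1.08 ± 0.27 (edgeR adjusted p = 8.55e-06, 1.44e-05 and 0.00892). The smallest values were found for Mtrex, the helicase of the nuclear exosome, which fell by -0.74 ± 0.08, and for Mdn1, a giant ATPase of large subunit assembly, which fell by -0.49 ± 0.13. The call for Mdn1 was lost with limma on log2(FPKM + 1) or log2(FPKM + 0.1) (log2 fold changes of -0.29 and -0.45, adjusted p = 0.0508 and 0.0553). Ttf1, the terminator of RNA polymerase I, had a log2 fold change of -0.26 and did not pass (edgeR adjusted p = 0.0659).

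Of 11 further factors and subunits of RNA polymerase I transcription 3 rose (27.3%) and 1 fell (9.09%), against 25.7% and 24.8% of all tested genes, with a median log2 fold change of 0.07. The share of higher genes in this list is near that of all tested genes. Taf1d, part of the promoter selectivity factor, rose by 0.70 ± 0.13 (edgeR adjusted p = 0.00179) and was named after its value was seen. Rrn3, which makes the polymerase competent to start, rose from 32.4, 31.9 and 32.2 CPM in Control to 41.3, 42.0 and 40.04 CPM in LPS libraries, a log2 fold change of 0.35 ± 0.07 (edgeR adjusted p = 0.00206). Tcof1, which encodes treacle, had a log2 fold change of 0.37 ± 0.12 and Ubtf, the DNA-binding factor of active ribosomal genes, one of -0.20 ± 0.07. Both passed the test with all libraries (edgeR adjusted p = 0.0282 and 0.0371). The call for Tcof1 was lost without LPS replicate 2, LPS replicate 3 or any 1 Control library (edgeR adjusted p = 0.0553 to 0.115), and that for Ubtf without LPS replicate 1, LPS replicate 2 or any 1 Control library (0.0636 to 0.106) and with no filter on low counts (0.0590). Of 40 small subunit factors outside the naming pattern 25 rose and 0 fell (edgeR; also 0 at an unadjusted p below 0.05), and of 53 large subunit factors 33 rose and 2 fell. Ribosomal protein symbols, most of which name products that these factors assemble, showed a median log2 fold change of 0.37. Of 79 tested 65 were higher and 1 lower, the retrocopy Rps23rg1. The list was picked by name pattern and also holds related symbols, such as Rpl7l1, Rpl6l and Rpl37rt, which rose, and Rps27rt, which did not pass.

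**Figure D5:**
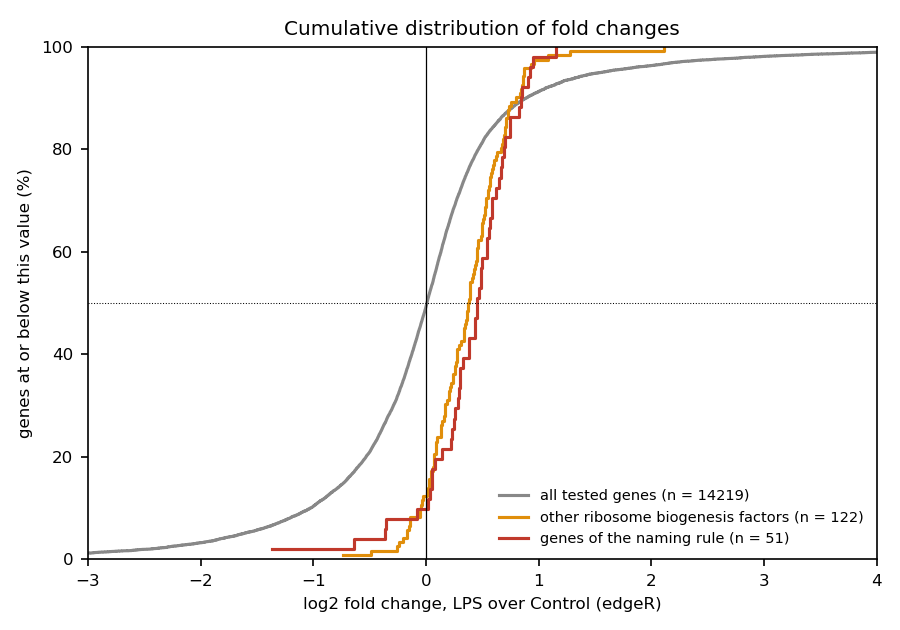
Cumulative share of genes (y axis, %) at or below each log2 fold change of LPS over Control (x axis, shown from -3 to 4) for all 14219 tested genes, the 122 other ribosome biogenesis factors and the 51 tested genes of the naming rule. Both gene lists lie to the right of all genes until the curves meet between 0.5 and 1, with medians of 0.45 and 0.38 against 0.01, and hold few genes beyond 1.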

How the data were processed

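Per the labels' protocols, TRIzol was used for RNA of 3 LPS and 3 Control kidneys, and the VAHTS Universal V6 kit for the libraries. The authors deposited raw counts per gene symbol and FPKM values for each library. Per the submitters' processing notes the tools were HISAT2, HTSeq, SAMtools, DESeq2 and R 3.2.0, with no role or order. No source used here states the genome build, annotation or strand setting. Of 97605 deposited FPKM values above 0, 97602 follow from the count, the library total and 1 gene length that is a whole number of bases, at a relative tolerance of 1e-06.

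Groups and replicate numbers came from the sample titles. Genes kept by filterByExpr (minimum count 10, minimum total 15), 14219 of 17680, were scaled by TMM and tested two-sided with edgeR 4.0.16 (quasi-likelihood) in R 4.3.3, with Benjamini-Hochberg adjustment over all of them. CPM are scaled by the TMM factors. SE is the log2 fold change over the square root of F. The members and gene lists were chosen with earlier results of these data known. Values in every library are given for the members with the largest and the smallest log2 fold change of each role group and for Polr1a, Ncl, Npm1, Fbl, Nop56, Nop58 and Dkc1; of the other factors the 3 largest and 3 smallest are named, with Ubtf, Rrn3, Tcof1 and Myc. Nol7, Taf1d, Twistnb, Cd3eap, Znrd1, overlapping neighbours and the 4 printed promoters were chosen after their values were seen.

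Libraries held 29097558 to 33454344 counts, which limits precision for genes of few counts. Counts were simulated for LPS against Control over 14219 genes, with 67 genes changed 1.5-fold, 67 changed 2-fold and 66 changed 4-fold. Recovery was 46.3% at a 1.5-fold change, 71.6% at 2-fold and 90.9% at 4-fold. In the data 3658 genes rose and 3527 fell, so the adjusted threshold was stricter in the simulation. These shares therefore do not give the recovery in the data. Genes simulated without a change made up 5 of 144 calls. Alternatives were RLE factors, library sizes alone, all genes unfiltered, genes with a mean CPM from 1 upward, limma-voom (limma 3.58.1), DESeq2 1.42.0, limma on log2(FPKM + 1) and log2(FPKM + 0.1) for the same genes, the replicate number as a block, a fit leaving out 177 genes (symbols beginning with Svs, and those where LPS replicate 2 exceeded each of the remaining libraries by more than 32-fold), and leaving out each library.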

Additional observations from a re-analysis of the deposited data

How the results depend on the processing

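Under the 16 alternatives, 31 of the 34 higher members passed in every one, and 47 of the 51 tested members kept the sign of their log2 fold change. The number of members higher in LPS was 34 with RLE factors, library sizes alone, both filters, limma-voom and both FPKM fits, 33 with DESeq2 and 31 to 37 with 1 library left out. Over the alternatives 60.8% (without Control replicate 3) to 72.5% (without LPS replicate 1) of the tested members were higher. Of all tested genes 21.1% (all genes unfiltered) to 26.5% (mean CPM from 1 upward) were higher. The number lower was 2 to 3 with 1 library left out, where 3010 to 3490 of all tested genes were lower. The median log2 fold change of the members then was 0.40 to 0.53. The number at least 2-fold higher was 0 with limma on log2(FPKM + 1), which shrinks low genes, and 1 to 3 with 1 library left out, Nop56 and Nop58 joining Rrp12 without LPS replicate 1. Nop58 joined without Control replicate 1 and Rrp15 without Control replicate 2. The other biogenesis factors lower in LPS numbered 2 under the replicate block and 2 to 4 with 1 library left out, 2 without LPS replicate 2, Control replicate 2 or Control replicate 3. Among members near 0 the sign changed with 1 library left out. Nop53 ranged from -0.0950 (without Control replicate 1; -0.0828 without LPS replicate 1) to 0.145, Nol8 from -0.0641 (without LPS replicate 3; -0.0208 without Control replicate 2) to 0.138, Utp11 from -0.0622 (without LPS replicate 3; -0.00978 without Control replicate 1 and -4.69e-05 without Control replicate 3) to 0.0886, and Nol10 from -0.0498 (without Control replicate 3) to 0.114. The replicate numbers share no stated source, and deviations of same-numbered libraries correlated at 0.0265, -0.0691 and -0.0119, so they were not taken as pairs. With the number as a replicate block 32 members were higher, Nop9 and Utp15 losing their calls (edgeR adjusted p = 0.0686 and 0.0545), and 3 lower. The block also ended the call for Ubtf (edgeR adjusted p = 0.0828). The cause was not tested. Depth limits Utp14b and Nol4 most.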
